A study of Canis lupus familiaris with 20 samples.

Results

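The 4 exosome libraries of OS-1, a dog osteosarcoma cell line, were compared with each other as 2 pairs, replicates 1 and 2 against replicates 3 and 4. They are 4 of the 20 libraries of the series, which holds 12 exosome and 8 cell libraries, and all 24579 gene identifiers of the count table were used. The pairs were formed because earlier values of these same libraries fell apart that way, among them the share of counts taken by the most abundant genes. All differences between the pairs are therefore given as descriptions, and no test was made of them. The labels describe the 4 libraries alike, as RNA of exosomes from the culture supernatant of OS-1. They name no passage, date, culture or batch that would set the pairs apart, and do not say whether the replicates came from separate cultures. The 2 OS-1 cell libraries, A and B, served as a reference for abundance in cells.

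Exosomes are small vesicles that form inside endosomal compartments of a cell and are released when these fuse with the cell surface. They carry RNA fragments from the cell of origin, together with membrane and soluble proteins, and are studied in osteosarcoma as a source of tumour RNA in blood. Here vesicles were collected by ExoQuick, a reagent that precipitates them from the supernatant, and their RNA was isolated with the SeraMir kit before stranded total RNA libraries for small inputs were made. In such bulk samples fewer vesicles of a kind and less RNA per vesicle cannot be told apart. The table names genes by Ensembl identifiers alone, and no gene could be assigned to a function, a pathway or a cell type. The label of the line could likewise not be checked against marker genes. The libraries labelled OS-1 exosomes 3 and 4 were about as like the OSCA-32 exosome libraries as each other, with values given at the end. Whether each library holds RNA of the line on its label could not be checked, and the names OS-1 replicates 1 to 4 stand for the labels only. A gene that separated the pairs also separated OS-1 cell libraries A and B from each other.

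The pairs also differed in depth. Total counts were 259078 in replicate 1, 355194 in replicate 2, 478322 in replicate 3 and 440689 in replicate 4, so that both libraries of the first pair were shallower. A count of 0 allowed up to 11.6, 8.45, 6.27 and 6.81 CPM (counts scaled to 1e6 per library) in this order, taking 3 counts as the limit. The pooled OS-1 cell libraries held 10730009 and 7728553 counts. Intervals and limits here cover counting error only.

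The pairs differed most in how much of a library a few genes took. In replicates 1 and 2, 4 genes each above 1% of at least 1 of the 4 libraries took 16.8% and 12.2% of all counts together. In replicates 3 and 4 the same 4 genes took 0.0673% and 0.0404%. The 10 most abundant genes of each library took 18.9% of the counts in replicate 1 (Clopper-Pearson 95% interval 18.7% to 19.0%) and 14.4% in replicate 2 (14.3% to 14.5%). In replicate 3 they took 2.50% (2.46% to 2.54%) and in replicate 4 only 1.63% (1.59% to 1.66%). Both libraries of the first pair thus lay above the OS-1 cell libraries, at 7.19% and 8.56%, and both of the second pair below them. Counting from the most abundant gene, 50% of the counts lay in 2380, 2781, 3558 and 3554 genes in replicates 1 to 4, against 841 and 667 genes in cells A and B.

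**Figure D1:**
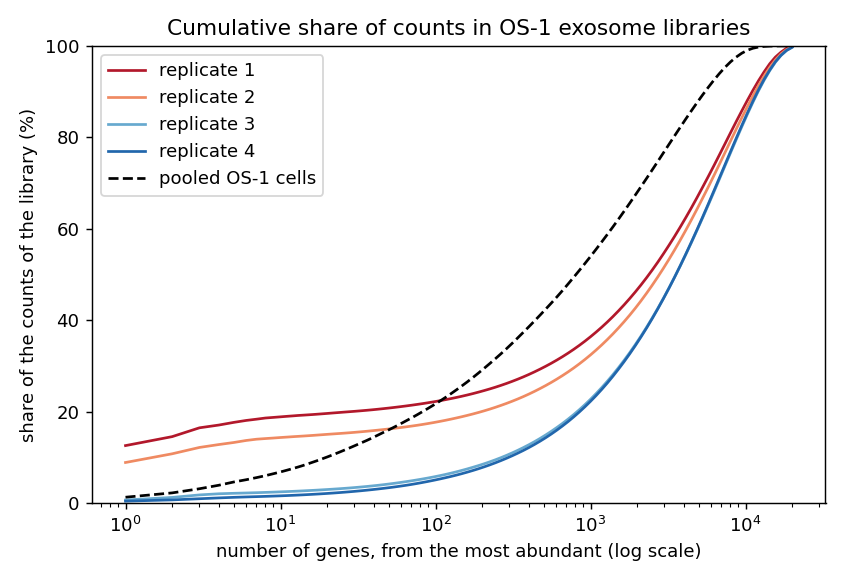
Share of the counts of each OS-1 exosome library, and of the pooled OS-1 cells, that lies in a given number of its most abundant genes (x axis, log scale; y axis, percent). At 10 genes, replicates 1 and 2 stand at 18.9% and 14.4% and replicates 3 and 4 at 2.50% and 1.63%. The curves approach each other toward the scarce genes.

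The gene that contributed most to this was ENSCAFG00000029384, singled out after its values were seen. It had 32668 counts in replicate 1 and 31659 in replicate 2, which are 12.6% and 8.91% of these libraries. It had 306 counts in replicate 3 and 171 in replicate 4, or 0.0640% and 0.0388%. Over the pooled counts of the pairs it was 202-fold higher in replicates 1 and 2 (exact 95% counting interval 184 to 221), and it stood at 97.4 CPM in OS-1 cells A and 396 CPM in cells B. Its level was 640 and 388 CPM in replicates 3 and 4, and 126093 and 89132 CPM in replicates 1 and 2, both far above either cell library.

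By the rule for named genes, which asks for the widest gap between the closest libraries of the pairs, ENSCAFG00000030140 and ENSCAFG00000030616 led the genes that were higher in replicates 1 and 2. ENSCAFG00000030140 had 5000 and 6761 counts in these, or 19299 and 19035 CPM, and 7 and 4 counts in replicates 3 and 4, or 14.6 and 9.08 CPM. The 2 libraries of the first pair differed little from each other in it, and its pooled fold between the pairs was 1600 (counting interval 894 to 3205). Pooled OS-1 cells held 12.7 CPM of it, a level like that of replicates 3 and 4. ENSCAFG00000030616 had 664 and 989 counts in replicates 1 and 2, or 2563 and 2784 CPM, 0 counts in replicate 3 and 2 counts in replicate 4. Its pooled fold was 1237 with a wide counting interval of 342 to 10219, and pooled cells held 2.06 CPM. The counts of the 2 genes stood in a nearly constant ratio where both were abundant. ENSCAFG00000030140 had 7.53 and 6.84 counts for each count of ENSCAFG00000030616 in replicates 1 and 2. In OS-2, OSCA-8 and OSCA-78 replicate 2 exosomes, none of which entered the choice of the pairs, this ratio was 6.21 to 7.40. ENSCAFG00000029384 had 6.53 and 4.68 counts for each of ENSCAFG00000030140 in replicates 1 and 2, and 4.87 to 6.08 in those other libraries. In replicates 3 and 4, ENSCAFG00000030616 was too scarce for its ratio. ENSCAFG00000030140 had 7 and 4 counts there beside 306 and 171 of ENSCAFG00000029384, and no ratio was formed from so few counts. These counts do not show the proportion seen in replicates 1 and 2. In OSCA-32 replicate 1 and OSCA-78 replicate 3, where ENSCAFG00000030140 was also scarce, the ratio was higher, at 13.2 and 8.73. These 2 ratios rest on 11 and 22 counts of ENSCAFG00000030140. OSCA-32 replicate 2 had 1 count of it beside 111 of ENSCAFG00000029384, and no ratio was formed.

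Not all abundant genes of the first pair were even within it. The other 2 of the 4 genes above 1% also differed widely between replicates 1 and 2. Of these 2, the one that led in replicate 1 took 1.96% there and 0.00704% in replicate 2, with no count in replicates 3 and 4. The other took 0.277% in replicate 1 and 1.39% in replicate 2, and 0.00188% and 0.000681% in replicates 3 and 4. Both were nearly absent from OS-1 cells, at 0.108 and 0.163 CPM.

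The 2 genes named for replicates 3 and 4 had fewer counts than those named for replicates 1 and 2. ENSCAFG00000028821 led by the same rule, with 60 counts in each of replicates 3 and 4, or 125 and 136 CPM, and no count in replicates 1 and 2. It was at least 26.7-fold higher in replicates 3 and 4, taking 3 counts over replicates 1 and 2 as the limit. The 2 OS-1 cell libraries themselves differed in this gene, with 6.24 CPM in A and 123 CPM in B. The exosomes of OSCA-32 had 168 and 153 CPM, those of OS-2 14.5 and 35.3 CPM, and those of OSCA-78 and OSCA-8 held at most 1 count per library. Cells of OS-2 had 126 and 143 CPM, and cells of OSCA-78 and OSCA-8 no more than 0.526 CPM. ENSCAFG00000005375 had 42 and 39 counts in replicates 3 and 4, or 87.8 and 88.5 CPM, and 0 and 3 counts in replicates 1 and 2. Its pooled fold was 18.0 (counting interval 5.96 to 89.3). It had 2 counts in OS-1 cells B and none in cells A. Outside OS-1 it was highest in OSCA-78 replicate 3, at 66.2 CPM, and in both OSCA-32 libraries, at 58.5 and 46.9 CPM.

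**Figure D2:**
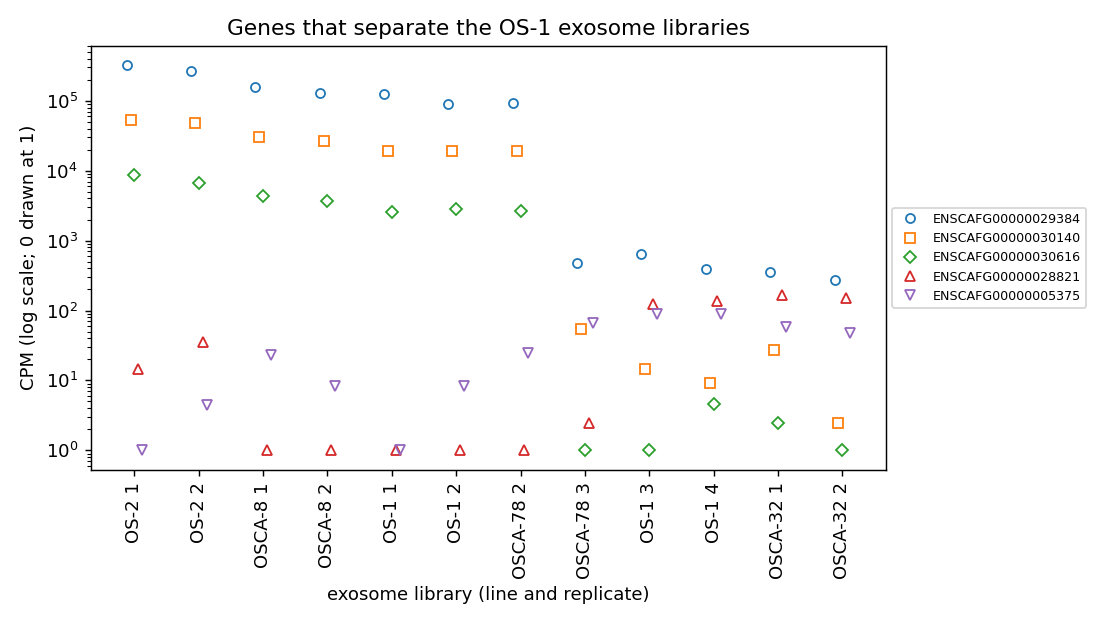
Level of 5 genes (CPM, log scale, 0 drawn at 1) in each of the 12 exosome libraries, in an order set by hand. ENSCAFG00000029384, ENSCAFG00000030140 and ENSCAFG00000030616 are high in OS-1 replicates 1 and 2, in OS-2, in OSCA-8 and in OSCA-78 replicate 2, and low in OS-1 replicates 3 and 4, in OSCA-32 and in OSCA-78 replicate 3. ENSCAFG00000028821 and ENSCAFG00000005375 are high in OS-1 replicates 3 and 4 and in OSCA-32, and differ in OSCA-78 replicate 3, at 2.45 and 66.2 CPM.

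Beyond these few genes the pairs differed by moderate amounts across many. A gene was counted as differing when both libraries of 1 pair lay above both of the other and the ratio of the pair means was at least 2 on TMM-scaled CPM (CPM corrected for differences in composition), among genes with at least 40 counts over the 4 libraries. Of the 11626 genes that met the count minimum, 646 (5.56%) were higher in replicates 1 and 2 and 1075 (9.25%) were higher in replicates 3 and 4. The pairs were chosen on these libraries, so these shares describe them and support nothing further. The median log2 ratio of replicates 1 and 2 over 3 and 4 was 1.30 for the former genes and -1.30 for the latter, against -0.09 over all 11626 genes. At a fold of 4 or more the numbers were 87 and 89, and at a fold of 16 or more 12 and 1. The widest ratios thus lay mainly in the direction of replicates 1 and 2, and ratios under 4 mainly in the other. Near the limit of 2, 192 genes had a log2 ratio from 0.9 to 1 and 152 one from 1 to 1.1. In the other direction these numbers were 297 and 226. The balance of directions moved with the scaling. With total counts 425 genes were higher in replicates 1 and 2 and 1563 in replicates 3 and 4, and the median over all genes was then -0.26. Relative to the median of all genes, 836 genes had a ratio of the pair means of at least 2 in favour of replicates 1 and 2. In favour of replicates 3 and 4 there were 882. With total counts these numbers were 835 and 875, a likeness that follows from the measure, since scaling moves all ratios nearly alike. With all 4 libraries thinned to 259078 counts and the minimum of 40 counts applied again, 499 and 669 genes met the rule, out of fewer than 11626. The shallower depth of replicates 1 and 2 moved with the pairs throughout. Scarce genes therefore reached the minimum of 40 counts more readily when higher in the deeper pair.

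Differences between single libraries set these numbers beside the spread within a pair. Replicates 1 and 2 differed by a fold of 2 or more in 1411 of the 11626 genes (12.1%), and replicates 3 and 4 in 805 (6.92%). Between the pairs, the numbers were 2614 for replicates 1 and 3 (22.5%), 2881 for 1 and 4 (24.8%), 2181 for 2 and 3 (18.8%) and 2458 for 2 and 4 (21.1%). The median size of the log2 difference was 0.41 and 0.34 within the pairs and 0.49 to 0.58 between them. In each of these measures the 4 values between the pairs lay above both values within them. The pairs were chosen on these same libraries, so this order describes them and supports nothing further. A chi-square statistic per degree of freedom, which is near 1 for pure counting noise, was 2.39 for replicates 1 and 2 and 2.11 for replicates 3 and 4. It was 7.44 to 8.90 between the pairs. Without the 4 genes above 1% these values were 1.61, 2.11 and 3.66 to 4.15, so no library was a copy of another. The most abundant genes were shared within the pairs more than between them. Of the 100 most abundant genes, replicates 1 and 2 shared 75, replicates 3 and 4 shared 77, and libraries of different pairs shared 36 to 40.

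The next question was how the pairs stood to the RNA of the cells. Genes with a count in OS-1 cells were divided into 5 groups of equal size by their pooled cell CPM, with group 5 the most abundant at 66.5 CPM or more. Another 7778 genes had no count in OS-1 cells. Group 5 took 38.0% and 35.5% of the counts of replicates 1 and 2, 27.5% and 27.3% of those of replicates 3 and 4, and 78.1% and 81.4% of those of cells A and B. Binomial 95% intervals of these group shares in the exosome libraries reached at most 0.187 percentage points to either side. Without the 4 genes above 1%, group 5 took 30.5% and 30.3% in replicates 1 and 2 and 27.5% and 27.3% in replicates 3 and 4. The first pair therefore still lay above the second, by a smaller margin. Genes without an OS-1 cell count took 9.01% (interval 8.90% to 9.12%) and 9.77% (9.67% to 9.87%) in replicates 1 and 2. They took 12.7% (12.6% to 12.8%) and 12.9% (12.8% to 13.0%) in replicates 3 and 4. With the 4 genes taken out, these values were 10.8%, 11.1%, 12.7% and 12.9%. Group 4 lay lower in the first pair, at 15.9% and 16.8% against 19.7% and 19.8%, and at 19.1% and 19.2% against 19.8% and 19.8% with the 4 genes taken out. Group 1, the scarcest genes in cells, took 10.7% to 11.1% in all 4 libraries.

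**Figure D3:**
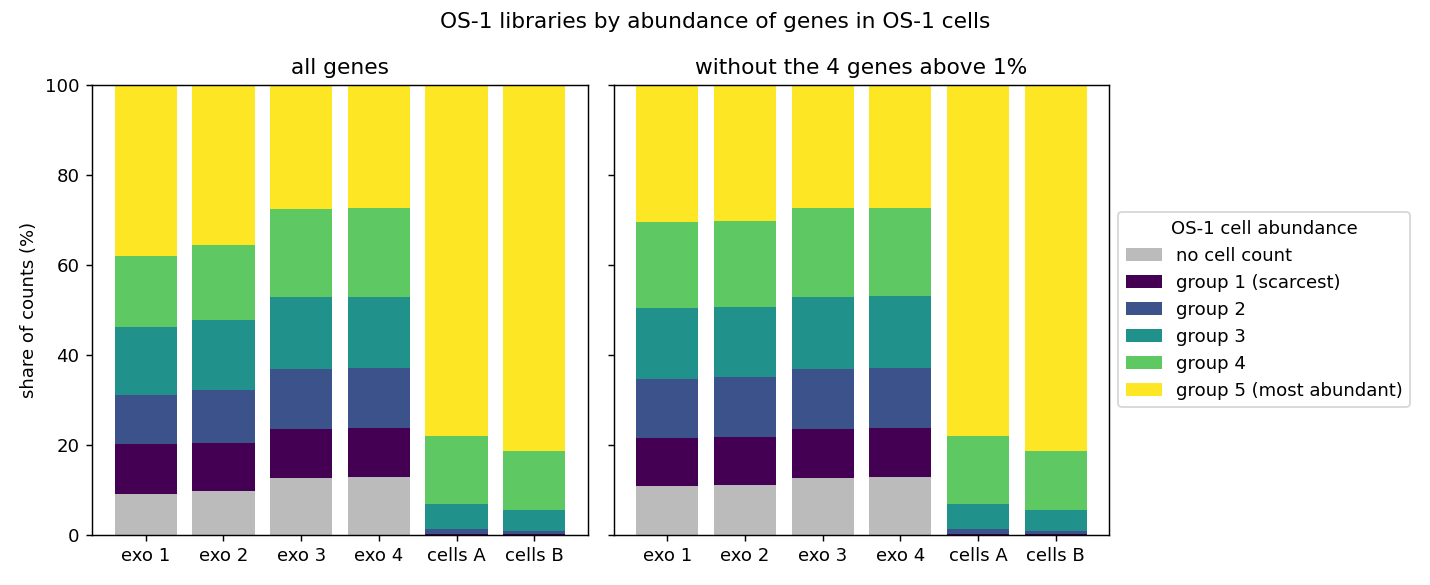
Share of counts (y axis, percent) in each OS-1 exosome library and each OS-1 cell library, by the abundance of the genes in OS-1 cells, with all genes (left) and without the 4 genes above 1% of an OS-1 exosome library (right). Group 5 stands at 38.0% and 35.5% in replicates 1 and 2 and at 27.5% and 27.3% in replicates 3 and 4 on the left, and the gap is smaller on the right.

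The counted genes were spread unevenly over these groups. In group 5, 288 of 2901 genes with enough counts (9.93%) were higher in replicates 1 and 2 and 161 (5.55%) in replicates 3 and 4, whereas with total counts this order turned to 209 and 254. Among genes without an OS-1 cell count, 50 of 1339 (3.73%) were higher in replicates 1 and 2 and 223 (16.7%) in replicates 3 and 4. In groups 1 to 4 the shares were 3.99% to 4.41% and 8.19% to 11.1%. The median log2 ratio was -0.27 in genes without a cell count and 0.06 in group 5, and with total counts -0.44 and -0.11, so that the sign of group 5 turned. Taken as a distance from the median over all 11626 genes, these values were -0.18 and 0.15 under both scalings. That likeness follows from the measure, since scaling moves all ratios nearly alike. The count minimum kept 1339 of the 7778 genes without a cell count and 2901 of the 3360 genes of group 5, so scarce genes are represented by those that exosomes held in some number. The minimum was summed over the 4 libraries, with 919011 counts in replicates 3 and 4 and 614272 in replicates 1 and 2. A scarce gene thus passed it more readily when higher in replicates 3 and 4. How far this shaped the shares by direction was not tested. The genes higher in replicates 1 and 2 had a median of 50.5 CPM in pooled OS-1 cells, and those higher in replicates 3 and 4 had 8.88 CPM, against 21.0 CPM over all 11626 genes.

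**Figure D4:**
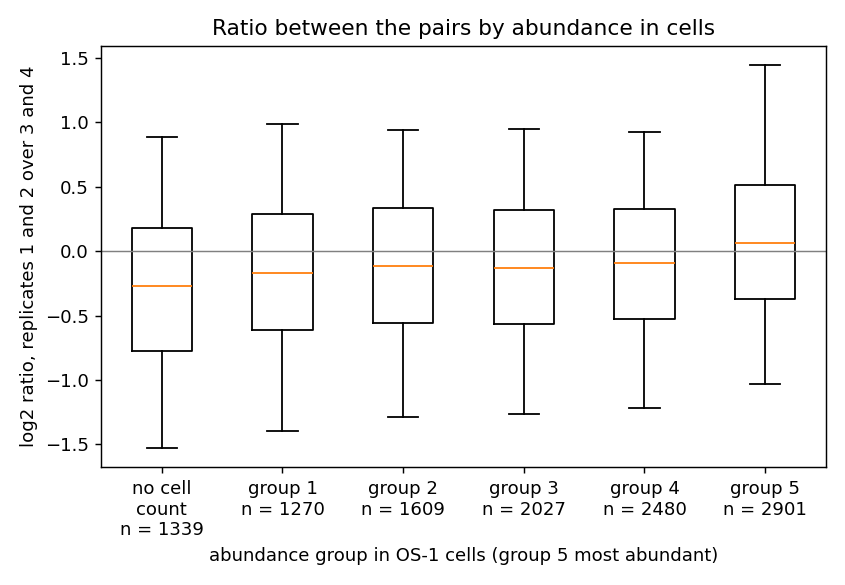
Log2 ratio of replicates 1 and 2 over replicates 3 and 4 (TMM-scaled CPM) by abundance of the gene in OS-1 cells. Lines are medians, boxes span the 25% to 75% quantiles and whiskers the 5% to 95% quantiles over genes. The median is lowest in genes without a cell count, at -0.27, and highest in group 5, at 0.06 (-0.11 with total counts, not drawn), with group 3 slightly below group 2, and the boxes overlap widely.

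Across the 11626 genes, Spearman's rho with pooled OS-1 cells was 0.28 in replicates 1 and 2 each, 0.15 in replicate 3 and 0.16 in replicate 4. Genes are not independent replicates, and these values share the cell libraries and move with depth, so they are descriptions. Against the cells of the other lines, replicates 1 and 2 gave 0.29 and 0.29 with OSCA-78 and 0.29 and 0.30 with OSCA-8, as high as with their own cells. Replicates 3 and 4 gave 0.15 and 0.16 with OSCA-78 and 0.15 and 0.15 with OSCA-8. All 4 libraries had their lowest value with OS-2 cells, at 0.25, 0.26, 0.12 and 0.13. By this measure no OS-1 exosome library was set apart by likeness to its own cells.

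Detection differed less than composition. Thinned to 259078 counts, replicates 1 to 4 showed 19694, 20073, 20259 and 20311 genes. Without the 4 genes above 1%, and thinned to 215617 counts, they showed 19690, 19951, 19859 and 19891, so that replicate 2 was then the highest. The difference of the pair means at 259078 counts (1 and 2 minus 3 and 4) was -401.5 genes, and -212 without replicate 1. A total of 17400 genes had a count in all 4 libraries. Another 282 were seen in both of replicates 1 and 2 and in neither of 3 and 4, and 692 the other way round. At equal totals these numbers were 412 and 569.

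The 8 exosome libraries of the other 4 lines did not enter the choice of the pairs, and they were set beside them. All 12 libraries were thinned to 177237 counts after removal of the 7 genes above 1% of any exosome library, and compared over 10762 genes. Replicate 1 had a rho of 0.68 with replicate 2, but of 0.49 and 0.45 with replicates 3 and 4. With OSCA-78 replicate 2 it reached 0.64, and with the OSCA-8 libraries 0.62 and 0.64. Replicate 2 gave 0.64 with OSCA-78 replicate 2, 0.64 and 0.65 with OSCA-8, and 0.51 and 0.47 with replicates 3 and 4. Replicates 3 and 4 had a rho of 0.70 with each other. Replicate 3 gave 0.68 with each OSCA-32 library, and replicate 4 gave 0.73 with each, above its value with replicate 3. OSCA-78 replicate 3 correlated with replicates 3 and 4 at 0.57 and 0.62, above its 0.52 with the other exosome library of its own line. OS-1 exosome libraries were thus closer to some libraries of other lines than to the other pair of their own line. Without removal and thinning, over 10769 genes, replicate 1 gave 0.73 with replicate 2 and 0.53 and 0.48 with replicates 3 and 4, and replicate 4 gave 0.79 with replicate 3 and 0.82 with each OSCA-32 library.

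**Figure D5:**
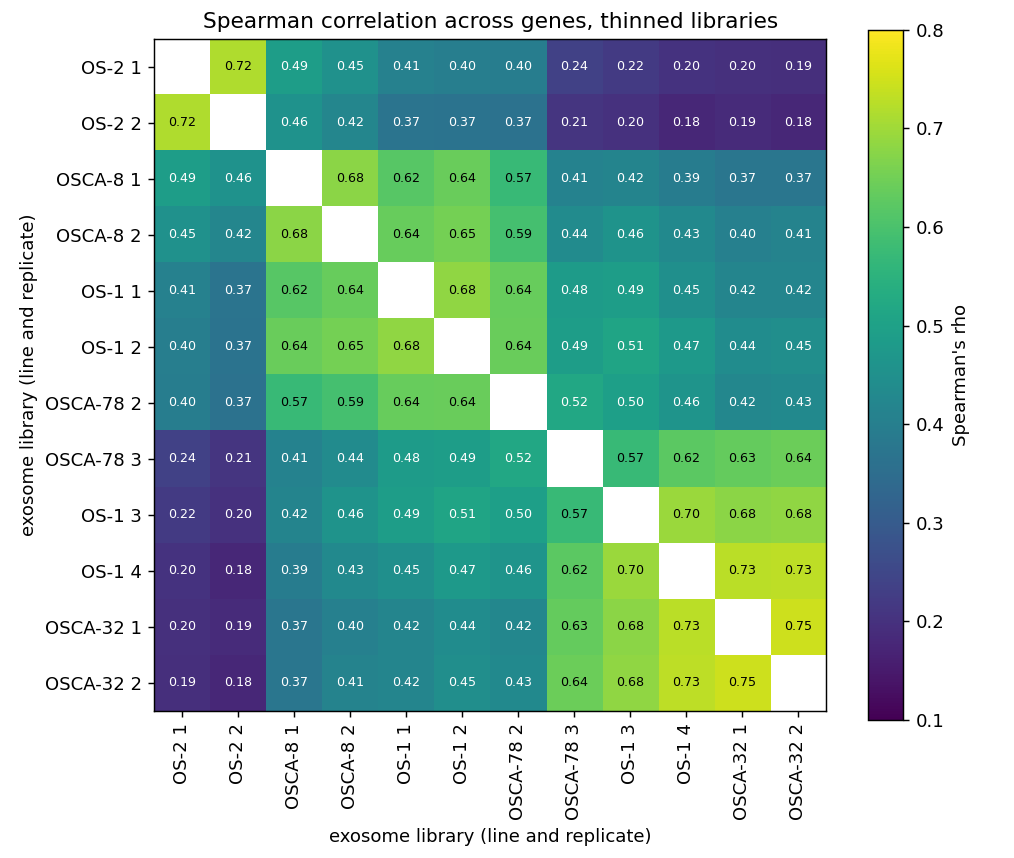
Spearman's rho across 10762 genes between the 12 exosome libraries, each thinned to 177237 counts after removal of 7 genes above 1% of a library. The order of the libraries was set by hand. Outside their line, OS-1 replicates 1 and 2 had their highest values with OSCA-8 and OSCA-78 replicate 2. OS-1 replicates 3 and 4 had theirs with OSCA-32 and OSCA-78 replicate 3. OS-2 had its highest values outside its line with OSCA-8, at 0.42 to 0.49. It had 0.18 to 0.24 with OS-1 replicates 3 and 4, OSCA-32 and OSCA-78 replicate 3.

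The counted genes divided the libraries of OSCA-8, OSCA-78 and OSCA-32 in the same places as the correlations. For OS-2 the 2 views differed in part. Its libraries lay on the side of replicates 1 and 2 by these genes. By thinned rho they gave 0.41 and 0.37 with replicate 1, below the 0.42 of each OSCA-32 library. With replicates 3 and 4 they gave less, 0.18 to 0.22. With the 4 genes above 1% taken out of each library, the genes higher in replicates 1 and 2 took 8.88% and 8.05% in these, 2.53% and 2.30% in replicates 3 and 4. In other lines they took 18.2% and 19.7% of OS-2, 11.2% and 9.10% of OSCA-8 and 7.18% of OSCA-78 replicate 2. They took 2.60% and 2.43% of OSCA-32 and 4.58% of OSCA-78 replicate 3. Only the 4 genes above 1% of an OS-1 exosome library were taken out here, not the 7 removed for the correlations. In OS-2 these 4 took 48.3% and 50.3% of all counts, and the 10 most abundant genes 57.1% and 62.7%. Whether a few abundant genes made up much of the OS-2 shares was not tested. The genes higher in replicates 1 and 2 had a median of 31.2 and 22.1 CPM there, against 16.6 and 13.2 CPM over all 11626 genes. The genes higher in replicates 3 and 4 took 10.6% and 11.1% in these and 3.69% and 4.18% in replicates 1 and 2. In other lines they took 10.7% of each OSCA-32 library, 8.11% of OSCA-78 replicate 3, and 3.09% to 5.44% of the other 5 libraries. The 2 exosome libraries of OSCA-78 thus differed from each other in the same direction as the OS-1 pairs. OSCA-78 replicate 2 held 321618 counts and replicate 3 held 407898, so depth moved with this difference as well, and its part was not tested. In cells the genes higher in replicates 1 and 2 took 24.5% and 21.4% of OS-1 libraries A and B and those higher in replicates 3 and 4 took 3.03% and 4.38%.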

How the data were processed

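The authors deposited raw read counts as whole numbers, 1 row per dog Ensembl gene identifier. In the submitters' processing notes the tools are kallisto 0.43.0, Trimmomatic 0.33.0 and FastQC 0.11.5, and CanFam3.1 and GRCm38.p5 are the builds, with no role for each. Which tool counted, whether it used strand and how it treated reads shared by similar genes is not given in the sources used here. Values of overlapping or near-identical genes are uncertain for that reason. Columns were matched to libraries by title, and 1 column that matched no label was not used. Of 24579 identifiers, 0 matched the RefSeq gene table.

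The pairs, genes and lists were chosen with earlier results of these data known. TMM, RLE and upper quartile factors came from edgeR 4.0.16 (R 4.3.3), over all genes of the 4 libraries. Ratios used a prior of 2 counts. No significance test was run on the pairs. Dixon's ratio was used to look for single libraries far from the other 3. Named genes were the first 2 in each direction, ordered by the smallest ratio between libraries of the pairs, with libraries under 3 counts set to 3. The counting rule was tested on simulated counts with 200 changed genes. Alternatives were other scalings, filters, folds and priors, thinning, other cell references and leaving out each library.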

Additional observations from a re-analysis of the deposited data

Results flagged for a closer look

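Replicate 1 stood apart from the other 3 OS-1 exosome libraries in ENSCAFG00000029369, at 19589 CPM or 5075 counts. Replicate 2 had 25 counts, or 70.4 CPM, and replicates 3 and 4 had none. The gene was singled out after its values were seen, and it was 1 of 21 measures examined for a library far from the rest. The limit used marks about 1 in 20 groups by chance. It varied even more within OSCA-8, with 18183 and 20 counts in replicates 1 and 2, and within OSCA-78, with 21276 and 4 counts in replicates 2 and 3. In OS-2 both libraries were high, with 47187 and 85756 counts. In OSCA-32 both were low, with 2 and 0 counts.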

How the results depend on the processing

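No paired analysis was possible because no test was made and replicate numbers mark libraries of 1 line and fraction only. The 5 differences between pair means given here (the top 10 share, genes detected, the shares of group 5 and of genes without an OS-1 cell count, and rho with cells) kept their sign under the alternatives run for them. The order of the counts within group 5 did not, since 288 and 161 genes turned to 209 and 254 with total counts. The 646 genes higher in replicates 1 and 2 became 425 with total counts, 1727 without a filter, 263 with a minimum of 80 counts and 87 at a fold of 4. The 1075 genes higher in replicates 3 and 4 became 2175, 548 and 89 under the last 3 of these and 669 with thinning. Leaving out each library gave 529 to 711 and 740 to 1462 genes. The cause of these moves was the rule itself for the filters and the fold, and was not tested for the others. Without a filter all 24579 identifiers were examined. The minimum of 80 counts, thinning and leaving out a library also changed how many genes were examined. The numbers under these settings are therefore not shares of the same genes. They do not tell whether the share of genes counted rose or fell. The gap in the share of the 10 most abundant genes, 14.6 percentage points, was 12.3 to 16.8 without single libraries. Genes detected at equal totals differed by -401.5 between the pair means (1 and 2 minus 3 and 4), by -591 (without replicate 2) to -212 (without replicate 1) without single libraries and by -54.5 without the 4 genes above 1%. The gap in the share of group 5, 9.38 points, was 3.07 without those genes and 8.13 to 10.6 without single libraries. The gap for genes without an OS-1 cell count, -3.40 points, was -1.82 without those genes, -2.15 for genes without a count in cells of any line, and -3.78 to -3.03 without single libraries. The gap in rho with cells, 0.13, was 0.0568 without a filter, 0.146 with cell library A, 0.0872 with B and 0.12 to 0.13 without single libraries. Depth limits genes below about 6.27 to 11.6 CPM, at which 3 counts are expected.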
